A study of Rattus norvegicus with 6 samples.

Results

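Long non-coding RNAs (lncRNAs) of the left ventricle, the main pumping chamber of the heart, were set against those of the hypothalamus, the brain region that governs hormone release, appetite and blood pressure. Both tissues came from male Brown Norway rats (strain BN, inbred) aged 6 weeks, with 1 sample per tissue label and no treatment named for any group. The comparison used the 4 FPKM columns of these tissues, 2 for left ventricle and 2 for hypothalamus, and all 2455 transcripts with values, of 2458 in the deposited table of the series' 6 tissues. FPKM is the number of sequenced fragments scaled by the length of the transcript and the size of the library, so it is a level per length. The column code of the hypothalamus was matched by elimination, so what is said of hypothalamus assumes that this match is right. Nothing in the labels tells if both columns of a tissue stem from 1 animal or from 2. A p-value here therefore reflects the scatter among columns and no more, and that scatter may be technical. Where values of a tissue are given as a pair, they are columns 1 and 2.

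lncRNAs are long transcripts that are not known to code for a protein. Many are made in 1 or a few tissues, and some act on neighbouring genes, on chromatin or on other RNAs. Others carry a microRNA or a small nucleolar RNA in an exon or intron, so that making the long transcript also supplies the short one. Heart muscle cells and neurons are both electrically excitable, but each tissue also holds other cells, such as fibroblasts and vessel cells in the ventricle and glia in the hypothalamus. In such bulk samples fewer cells of a type and less RNA per cell cannot be told apart.

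At a mean FPKM of at least 1 the 2 tissues held largely different sets of lncRNAs, and the overlap depends on that limit. With a mean FPKM of at least 1, 368 transcripts were detected in left ventricle and 243 in hypothalamus, and 99 of these were detected in both. The 99 were 26.9% of the left ventricle set and 40.7% of the hypothalamus set. A further 269 transcripts reached that level in left ventricle alone and 144 in hypothalamus alone. With columns rescaled to a common median over the transcripts both tissues hold, 328 were detected in left ventricle and 282 in hypothalamus. The size of the excess in left ventricle thus depends on the scale. With a mean of at least 0.5, the transcripts detected in both were 36.3% of the left ventricle set and 44.9% of the hypothalamus set. Above 0 were 1836 transcripts in left ventricle and 1910 in hypothalamus. Of all 2455 transcripts, 253 were listed at 0 in all 4 columns, and 1943 stayed under a mean of 1 in both tissues and were not tested. Over 884 transcripts at a mean of 0.5 or more in either tissue, log2(FPKM + 0.1) correlated across transcripts with r = 0.788 between the left ventricle columns and r = 0.864 between the hypothalamus columns. Between tissues r lay between -0.135 and -0.0382, a description over transcripts that share libraries and were picked for being high in one tissue or the other.

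The depth behind the values differed between the tissues. Low values fell on steps that imply about 10230000 and 10070000 fragments for left ventricle and 27450000 and 31480000 for hypothalamus, with an assumed mean fragment of 140 bases. A count of 0, which allows up to 3 fragments, therefore allowed 0.293 and 0.298 FPKM for 1 kb of transcript in left ventricle and 0.109 and 0.0953 FPKM in hypothalamus, as far as counting error alone goes. The limit was about as high in both columns of a tissue and higher in left ventricle. The table lists only transcripts the authors had selected as lncRNAs, so few marker genes were available for checking the tissue labels. Of 46 cardiac muscle symbols 1 was present, Myl1, and of 26 hypothalamus symbols and 10 pituitary symbols 0 were present. Of 37 symbols of neurons and glia, 6 were present with 10 transcripts, whose FPKM summed to 0.143 and 0.189 in left ventricle and 11.1 and 13.1 in hypothalamus. The summed level of this list was thus high in both columns labelled hypothalamus and near 0 in both left ventricle columns. The lists were written with earlier results of these data known, so this is a weak check of the labels. The Myl1 transcript had 4.43 and 34.9 FPKM in left ventricle, but its highest mean of the 6 tissues was in cortex, at 34.3 FPKM. It therefore does not mark the left ventricle columns.

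Of 512 tested transcripts, those whose mean FPKM reached 1 in either tissue, 356 (69.5%) differed at an adjusted p under 0.05 in limma with Benjamini-Hochberg adjustment. In left ventricle 233 (45.5%) were higher, at 199 loci, and 123 (24.0%) were higher in hypothalamus, at 109 loci. The other 156 were not called. The columns of the tissues did not overlap for any of the 356 called transcripts, nor for 449 (87.7%) of all tested. The median log2 difference over the 512, left ventricle minus hypothalamus, was 1.14 on the log2(FPKM + 0.1) scale, so the table as a whole leaned towards left ventricle. Rescaling the columns to a common median over the transcripts both tissues hold lowered that median to 0.52 and moved the share of calls higher in left ventricle to 55.3%, against 65.4% as deposited. After quantile normalization the median was 0.37 and the share 53.5%. Directions of individual transcripts are given on the deposited scale, and the lean towards left ventricle in the counts depends on that scale.

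**Figure D1:**
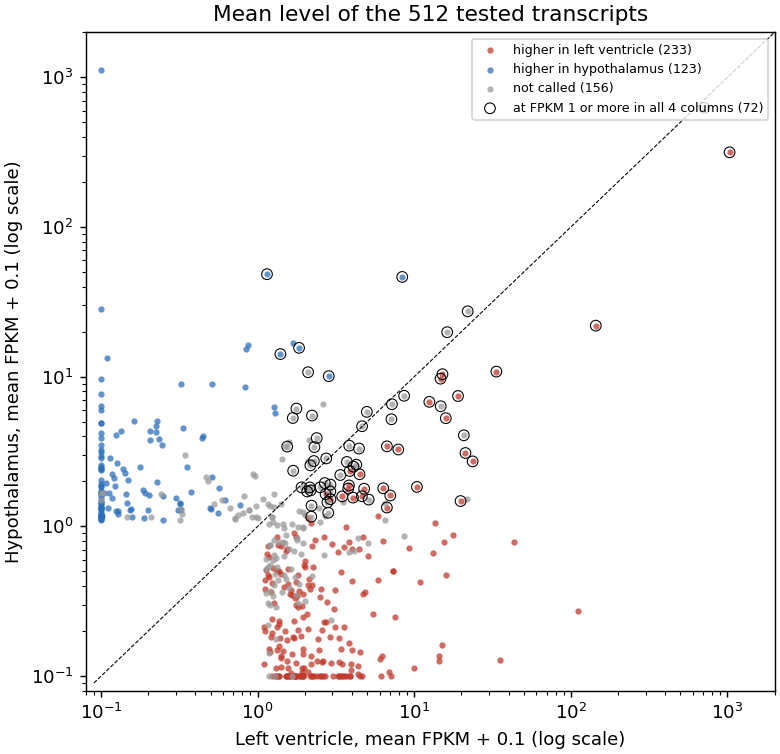
Mean FPKM + 0.1 of each of the 512 tested transcripts in left ventricle (horizontal, log scale) and hypothalamus (vertical, log scale), coloured by call, with the 72 transcripts at FPKM 1 or more in all 4 columns ringed and a dashed line of equality. Along the lower and left edges lie 39 of the 233 transcripts higher in left ventricle and 44 of the 123 higher in hypothalamus, which were listed at 0 in both columns of the opposite tissue, and 156 of the 512 were not called.

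Most called differences were large. Among the 194 transcripts higher in left ventricle that were not listed at 0 in both hypothalamus columns, the median log2 difference was 2.96 in size and 93 differed at least 8-fold. Among the 79 transcripts higher in hypothalamus that were not listed at 0 in both left ventricle columns, the median was 3.59 in size and 56 differed at least 8-fold. Most called transcripts were of low abundance in the tissue where they were higher, but the most abundant transcript of each tissue was also called. Those higher in left ventricle had a median FPKM of 2.12 there (quartiles 1.52 and 3.92), and those higher in hypothalamus had a median of 1.77 there (quartiles 1.23 and 3.98).

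The transcripts with the largest differences towards left ventricle were mostly intergenic ones without a name. TCONS_00060042, a 305-base transcript on chromosome 2 (173418576 to 173421499, rn5), had 118.3 and 103.0 FPKM in left ventricle, against 0.217 and 0.129 in hypothalamus. It was the fourth most abundant lncRNA of the ventricle, with 3.02% of the summed FPKM. Its log2 difference was 8.68 ± 1.03 (SE, adjusted p = 0.00013). A second isoform of the same locus, TCONS_00060041, had 15.4 and 13.2 FPKM in left ventricle, against 0 and 0.0520 in hypothalamus (log2 difference 6.86 ± 0.24, adjusted p = 2.5e-07). Both isoforms had their highest mean of the 6 tissues in left ventricle, and no reference gene is recorded for the locus. In the other tissues TCONS_00060042 reached 2.30 and 0.626 FPKM in outer medulla and 1.02 FPKM in adrenal gland column 2, and was listed at 0 in liver, cortex and adrenal gland column 1.

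TCONS_00054657, also on chromosome 2 (81839891 to 81843858) and 2541 bases long, had 36.1 and 34.8 FPKM in left ventricle, against 0.0151 and 0.0396 in hypothalamus (log2 difference 8.13 ± 0.52, adjusted p = 7.5e-06). TCONS_00068317 on chromosome 3 (142644461 to 142868604) had 43.2 and 43.8 FPKM in left ventricle, against 0.000509 and 1.38 in hypothalamus (6.82 ± 1.18, adjusted p = 0.0011). The hypothalamus columns of TCONS_00068317 stood far apart, and both lay well under either ventricle column. TCONS_00073275 (15.8 and 12.9 against 0.0581 and 0.0127 FPKM), TCONS_00052235 (14.6 and 15.4 against 0.0968 and 0.0281) and TCONS_00018600 (10.6 and 9.02 against 0.0136 and 0.0119) showed the same order, left ventricle before hypothalamus, with log2 differences of 6.75, 6.57 and 6.45. TCONS_00073275 overlaps the exons of ENSRNOG00000050588, and the other 2 have no reference gene. TCONS_00040643 on chromosome 16 had 7.93 and 6.16 FPKM in left ventricle and was listed at 0 in both hypothalamus columns (adjusted p = 0.00028). TCONS_00000227 on chromosome 1 had 8.47 and 3.63 FPKM in left ventricle, against 0.000813 and 0.000874 in hypothalamus (adjusted p = 0.00051).

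The one transcript with a gene symbol in this group overlaps Palld, which encodes palladin, a scaffold protein of actin filaments found in muscle and many motile cells. This transcript, TCONS_00040367, had 7.36 and 6.21 FPKM in left ventricle, against 0.0120 and 0 in hypothalamus (log2 difference 6.02 ± 0.29, adjusted p = 1.6e-06). All 10 transcripts of this group had their highest mean of the 6 tissues in left ventricle, and 8 of them reached a mean FPKM of 1 in none of the other 4 tissues. The sources used here do not say if reads were counted by strand, so a transcript that overlaps a gene, on either strand, may include reads of that gene.

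**Figure D2:**
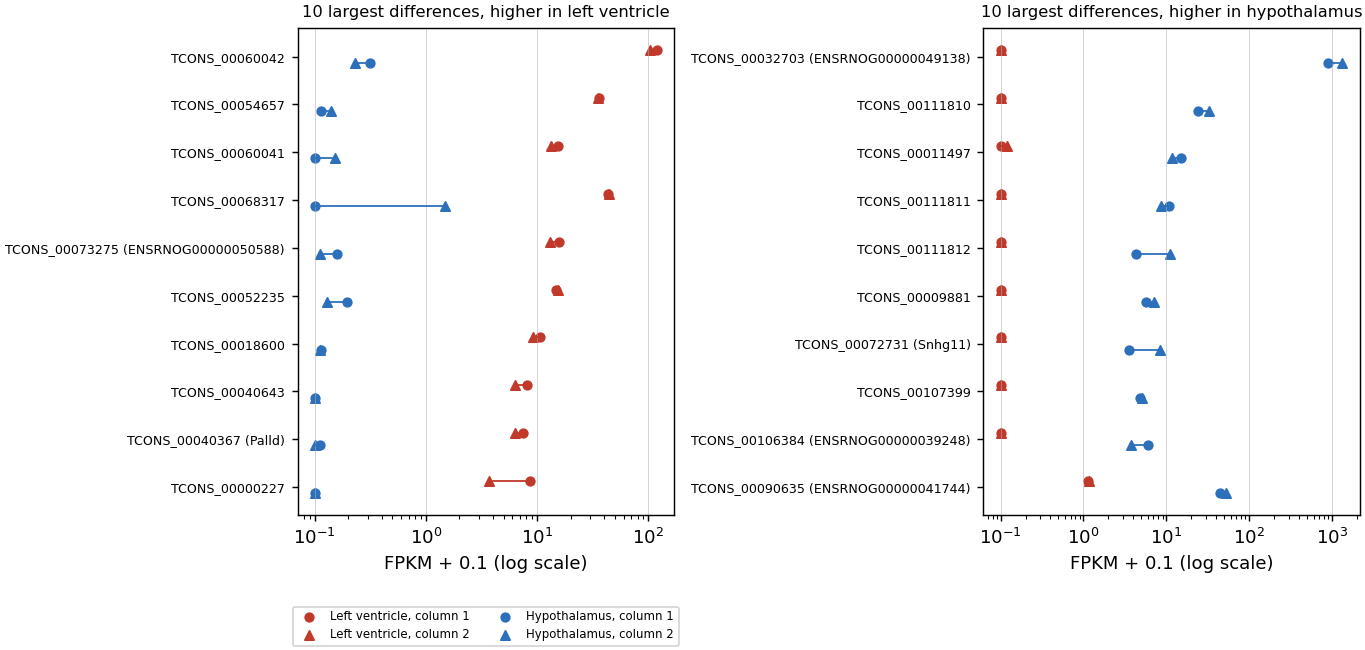
FPKM + 0.1 (log scale) in each column for the 10 called transcripts with the largest log2 difference in each direction, left ventricle in red above hypothalamus in blue, circles for column 1 and triangles for column 2, with a line joining the columns of a tissue. In the left panel left ventricle columns lie between 3.63 and 118.3 FPKM, and in the right panel hypothalamus columns lie between 3.48 and 1335 FPKM.

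Towards hypothalamus, the largest differences were again mostly in unnamed transcripts, and in 7 of the 10 both left ventricle columns were listed at 0. TCONS_00032703, 653 bases long at chromosome 14 (46814997 to 46864150) and overlapping ENSRNOG00000049138, was listed at 0 in both left ventricle columns and had 890.7 and 1335 FPKM in hypothalamus (adjusted p = 0.014). It alone made up 34.02% of the summed FPKM of hypothalamus. Its values in other tissues jumped between columns, with 3416 and 0 FPKM in cortex, 1256 and 1302 in adrenal gland and 0 in all liver and outer medulla columns. Its call was lost when any 1 of the 4 columns was left out, at adjusted p between 0.056 and 0.064.

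At 1 locus on the X chromosome (107512729 to 107513812) 3 short isoforms were listed at 0 in both left ventricle columns and were abundant in hypothalamus. TCONS_00111810 had 24.3 and 32.2 FPKM in hypothalamus (adjusted p = 1.6e-05), TCONS_00111811 had 10.7 and 8.45 (adjusted p = 6.1e-08) and TCONS_00111812 had 4.22 and 10.9 (adjusted p = 8.7e-05). They are 239, 413 and 309 bases long, and no reference gene is recorded for them. TCONS_00011497 on chromosome 1 (201907284 to 201977719) had 0 and 0.0193 FPKM in left ventricle, against 15.0 and 11.5 in hypothalamus (log2 difference -6.92 ± 0.32, adjusted p = 1.6e-06). TCONS_00009881 on chromosome 1, TCONS_00107399 on chromosome 9 and TCONS_00106384 on chromosome 9 were also listed at 0 in both left ventricle columns, and their hypothalamus columns lay between 3.61 and 7.03 FPKM. They are 551, 746 and 252 bases long, in that order. For transcripts under 1 kb, such as these and the X chromosome isoforms, a listed 0 allows more FPKM than the 0.293 and 0.298 given for 1 kb in left ventricle.

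Snhg11, a spliced host of small nucleolar RNAs, was the single member found of 27 symbols of known lncRNAs. TCONS_00072731, which shares a splice junction with Snhg11, had 6.23e-06 and 0 FPKM in left ventricle, against 3.48 and 8.22 in hypothalamus (adjusted p = 0.011, and 0.066 without hypothalamus column 2). The most abundant hypothalamus lncRNAs also included one that left ventricle holds at a lower level. TCONS_00083749, which shares a splice junction with Camk2n1, the gene of a protein inhibitor of calcium/calmodulin-dependent kinase II, had 6.62 and 9.94 FPKM in left ventricle, against 46.2 and 46.4 in hypothalamus (log2 difference -2.50 ± 0.51, adjusted p = 0.0027). Its mean FPKM was above 1 in all 6 tissues and highest in hypothalamus.

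In all 4 columns 72 transcripts at 69 loci reached FPKM 1, and they carried 64.0% of the summed FPKM of left ventricle and 41.4% of that of hypothalamus. Most of that share came from a pair of them, TCONS_00012467 (28.2% in left ventricle and 9.65% in hypothalamus) and TCONS_00015674 (19.4% and 19.1%, in the same order). The median of the 72 was 3.75 and 3.70 FPKM in the left ventricle columns, against 3.07 and 2.53 in the hypothalamus columns. Of the 72, 27 were higher in left ventricle, 5 were higher in hypothalamus and 40 were not called, against 45.5% and 24.0% of all tested called in those directions. The median log2 difference was 0.63 (quartiles -0.18 and 1.22). Transcripts sharing a splice junction with a reference gene were 15 of the 72 (20.8%), against 9.57% of all tested, and 40 of the 72 had no reference gene. Of the 72, 51 had a mean FPKM of at least 1 in each of the other 4 tissues, so most of what left ventricle and hypothalamus share was held by all 6.

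The most abundant shared transcript was TCONS_00012467, an 11142-base transcript on chromosome 1 (228080092 to 228091758) with no reference gene. It had 1112 and 953.0 FPKM in left ventricle, against 352.2 and 278.8 in hypothalamus (log2 difference 1.72 ± 0.21, adjusted p = 0.00016). Hypothalamus had the lowest level of the 6 tissues, as every column of liver, cortex, outer medulla and adrenal gland lay between 524.7 and 1231 FPKM. Its isoform TCONS_00012465 had 98.6 and 189.8 FPKM in left ventricle, against 22.7 and 21.0 in hypothalamus (2.64 ± 0.76, adjusted p = 0.014). That call was lost without left ventricle column 2 (adjusted p = 0.086), without hypothalamus column 1 (0.057) and without hypothalamus column 2 (0.064). TCONS_00015674, a 267-base transcript on chromosome 10 overlapping ENSRNOG00000047167, was about as abundant in both tissues, with 793.0 and 629.6 FPKM in left ventricle and 518.6 and 731.3 in hypothalamus. Its columns overlapped between the tissues, and its difference of 0.20 had a 95% interval from -0.85 to 1.25 and was not called (adjusted p = 0.71).

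For 39 of the 72 the estimated difference was within 2-fold, but only for 6 did the whole 95% interval lie within 2-fold. The median width of the interval was 1.93 on the log2 scale. The smallest difference was that of TCONS_00051015. It has a splice junction in common with NUDT21, the gene of a subunit of the complex that picks polyadenylation sites, and had 5.60 and 3.48 FPKM in left ventricle, against 4.51 and 4.63 in hypothalamus (log2 difference -0.05, interval -0.71 to 0.62). TCONS_00057724 on chromosome 2 had 17.4 and 26.3 FPKM in left ventricle, against 27.4 and 27.1 in hypothalamus (-0.35, interval -0.94 to 0.25). TCONS_00101331 on chromosome 8, with a splice junction of ENSRNOG00000014846, had 9.10 and 7.93 FPKM in left ventricle, against 8.41 and 6.30 in hypothalamus (0.22, interval -0.25 to 0.69). The columns of TCONS_00051015 and TCONS_00101331 overlapped between the tissues, whereas both left ventricle columns of TCONS_00057724 lay below both hypothalamus columns. All 3 were held by the other 4 tissues too at a mean FPKM above 1. TCONS_00016075, 17472 bases long on chromosome 10, had 2.05 and 2.10 FPKM in left ventricle, against 2.37 and 2.54 in hypothalamus (-0.24, interval -0.74 to 0.27). TCONS_00106149, a match to ENSRNOG00000048566, had 6.98 and 7.12 FPKM in left ventricle, against 4.88 and 5.31 in hypothalamus (0.46, interval -0.06 to 0.98).

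The last of the 6, TCONS_00021906, matches ENSRNOG00000047539 and had 15.2 and 14.9 FPKM in left ventricle, against 10.3 and 10.3 in hypothalamus. Its log2 difference of 0.54 was called (adjusted p = 0.021) although its interval, 0.15 to 0.94, lay within 2-fold. The call was lost on rescaled columns, where the difference was 0.13, and without hypothalamus column 2 (adjusted p = 0.061), and after quantile normalization the difference was -0.24. The number within 2-fold was 3 without left ventricle column 2, without hypothalamus column 1 or without hypothalamus column 2.

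**Figure D3:**
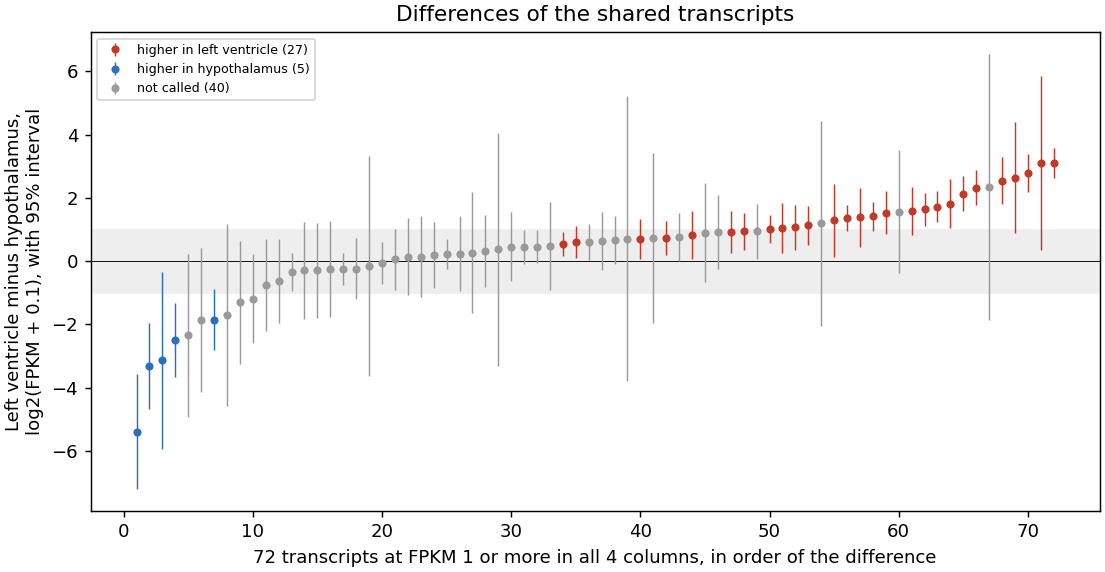
Log2 difference, left ventricle minus hypothalamus, with its 95% interval for each of the 72 transcripts at FPKM 1 or more in all 4 columns, ordered by the difference and coloured by call, with the range within 2-fold shaded grey. The 27 transcripts higher in left ventricle are red, the 5 higher in hypothalamus are blue, and only 6 intervals lie wholly in the shaded range.

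Of the 72, 7 had a mean FPKM under 1 in each of the other 4 tissues. Some were close to that limit, with TCONS_00087758 at 0.936 in liver and TCONS_00113012 at 0.895 in adrenal gland. TCONS_00035963 on chromosome 15 had 2.23 and 1.24 FPKM in left ventricle, against 16.4 and 14.5 in hypothalamus. TCONS_00113012, which shares a splice junction with Ap1s2, a subunit of the clathrin adaptor complex that sorts membrane proteins, had 2.94 and 1.62 FPKM in left ventricle, against 4.13 and 3.46 in hypothalamus, and was not called. Both were at higher values in both hypothalamus columns than in either ventricle column. A pair of neighbouring transcripts on chromosome 8 ran the other way, with TCONS_00100780 at 2.82 and 2.56 FPKM in left ventricle, against 1.29 and 1.40 in hypothalamus, and TCONS_00100784 at 2.79 and 2.84, against 1.43 and 1.41. TCONS_00011517, TCONS_00080758 and TCONS_00087758, on chromosomes 1, 5 and 5, had values between 1.07 and 3.42 FPKM in the 4 columns. The 7 transcripts were singled out after their values were seen.

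Several transcripts overlap microRNA genes. A microRNA is a short RNA that lowers the output of messenger RNAs whose sites pair with its seed, bases 2 to 8. A level of the long transcript is not a measurement of the mature microRNA. The table held 81 transcripts assigned to 26 microRNA genes, of which 17 were tested. Of these, 6 were higher in left ventricle, 7 were higher in hypothalamus and 4 were not called. Among all tested transcripts, 45.5% were called higher in left ventricle and 24.0% in hypothalamus. Each of the 7 reached the tested limit through hypothalamus alone, with left ventricle means of at most 0.133 FPKM. Each of the 6 reached it through left ventricle alone, with hypothalamus means of at most 0.956 FPKM. That left no other direction for these calls, so their counts cannot be set against those shares. With FPKM summed per locus, the 22 microRNA loci gave 14 tested, of which 5 were higher in left ventricle and 5 in hypothalamus. Over all 484 tested loci, 352 (72.7%) were called, 46.5% higher in left ventricle and 26.2% higher in hypothalamus. The 5 loci higher in hypothalamus were also tested through hypothalamus alone, with left ventricle means of at most 0.275 FPKM. Their count therefore cannot be set against the 26.2%.

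Mature sequences were matched for 23 of the 26 microRNA genes in RefSeq (GRCr8). A locus call rests on all its transcripts, and at the Mir29b-1 locus the called ones are not those assigned to the microRNA gene. The sequences shown belong to loci that were called. They are written from 5′ to 3′ with the seed in capitals, the first 4 from loci higher in left ventricle and the next 4 from loci higher in hypothalamus.
miR-143-3p: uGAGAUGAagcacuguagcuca
miR-675-5p: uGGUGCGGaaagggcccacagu
miR-29b-3p: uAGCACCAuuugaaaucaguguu
let-7c-5p: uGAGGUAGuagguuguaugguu
miR-7a-5p: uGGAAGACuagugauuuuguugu
miR-129-5p: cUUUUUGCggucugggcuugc
miR-384-5p: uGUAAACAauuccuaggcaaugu
miR-325-3p: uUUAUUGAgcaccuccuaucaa
All 8 seeds of this set differ, so the microRNAs shown for left ventricle and those for hypothalamus have different seeds. The seed of miR-29b-3p is that of 3 mature names in the RefSeq table (miR-29a, miR-29b and miR-29c), that of let-7c-5p is found under 9 names of the let-7 and miR-98 family, and that of miR-384-5p under 4 names, with miR-30a, miR-30c and miR-30e. Both Mir29b-1 and Mir29b-2 give the same miR-29b-3p. Likewise Mirlet7c-1 and Mirlet7c-2 give the same let-7c-5p, but only the Mirlet7c-2 locus was called.

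The Mir143 locus on chromosome 18 (56195504 to 56217968) was higher in left ventricle. miR-143 is known as a microRNA of smooth muscle, including that of vessel walls. Its 11 transcripts summed to 8.78 and 7.48 FPKM in left ventricle, against 0.612 and 0.699 in hypothalamus (log2 difference 3.44 ± 0.23, adjusted p = 8.1e-06 over loci). All 3 of its tested transcripts were higher in left ventricle, TCONS_00050239 by 3.59 and TCONS_00050246 by 2.99 on the log2 scale, and TCONS_00050247 by 2.70. Among the 6 tissues, TCONS_00050239 and TCONS_00050246 had their highest mean in outer medulla and TCONS_00050247 in left ventricle. The call of TCONS_00050247 (adjusted p = 0.040) was lost when any 1 of the 4 columns was left out, at adjusted p between 0.11 and 0.13. Mir143 was the single gene found of 20 symbols of vessel, blood, fibroblast and immune cells, so how far vessel content differed between the tissues was not tested.

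Mir675 lies within H19, an imprinted lncRNA made from the maternal chromosome in mouse and human. TCONS_00012142, at chromosome 1 (222639220 to 222642054), had 8.45 and 18.4 FPKM in left ventricle, against 1.14 and 0.774 in hypothalamus (log2 difference 3.60 ± 0.52, adjusted p = 0.00041). The ventricle columns stood apart and both were above either hypothalamus column. The 2 loci of miR-29b, which is known to act on collagen messenger RNAs, differed less. The Mir29b-2 locus on chromosome 13 summed to 3.66 and 3.84 FPKM in left ventricle, against 1.93 and 2.44 in hypothalamus (0.76 ± 0.23, adjusted p = 0.017), but on rescaled columns the difference was 0.36 and not called (adjusted p = 0.32). The Mir29b-1 locus is described with its isoforms. The Mirlet7c-2 locus on chromosome 7 summed to 1.82 and 2.19 FPKM in left ventricle, against 0.637 and 0.748 in hypothalamus (1.41 ± 0.23, adjusted p = 0.00075), while the Mirlet7c-1 locus, at 1.90 and 2.42 against 1.26 and 1.33, was not called (0.69, adjusted p = 0.085).

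The 5 microRNA loci higher in hypothalamus were those of Mir325 and Mir384, of Mir7a-2, of Mir124-2, of Mir129-2, and of mir-679 on chromosome 6. Of these, Mir7a-2 and Mir124-2 were on the list of neurons and glia. The locus of Mir325 and Mir384 on the X chromosome (77086036 to 77151776) summed to 0.265 and 0.285 FPKM in left ventricle, against 10.97 and 12.05 in hypothalamus (log2 difference -4.95 ± 0.50, adjusted p = 5.3e-05). All 3 of its transcripts were called, with TCONS_00113683 at 0.0978 and 0.160 FPKM in left ventricle, against 4.71 and 5.28 in hypothalamus. The transcript of Mir7a-2, TCONS_00003145 on chromosome 1, had 0 and 0.0403 FPKM in left ventricle, against 1.88 and 2.12 in hypothalamus (-4.15 ± 0.27, adjusted p = 8.6e-06). miR-7 is known as a microRNA of neuroendocrine cells. The Mir124-2 locus on chromosome 2 had 0 and 0.0181 FPKM in left ventricle, against 1.85 and 1.98 in hypothalamus (-4.21 ± 0.55, adjusted p = 0.00019), and miR-124 is known as an abundant microRNA of neurons. TCONS_00071227 of Mir129-2 was listed at 0 in both left ventricle columns and had 1.12 and 1.01 FPKM in hypothalamus (adjusted p = 0.00072). Mir137, also on the list of neurons and glia, was listed at 0 in both left ventricle columns and had 1.30 and 0.546 FPKM in hypothalamus, too low to be tested.

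**Figure D4:**
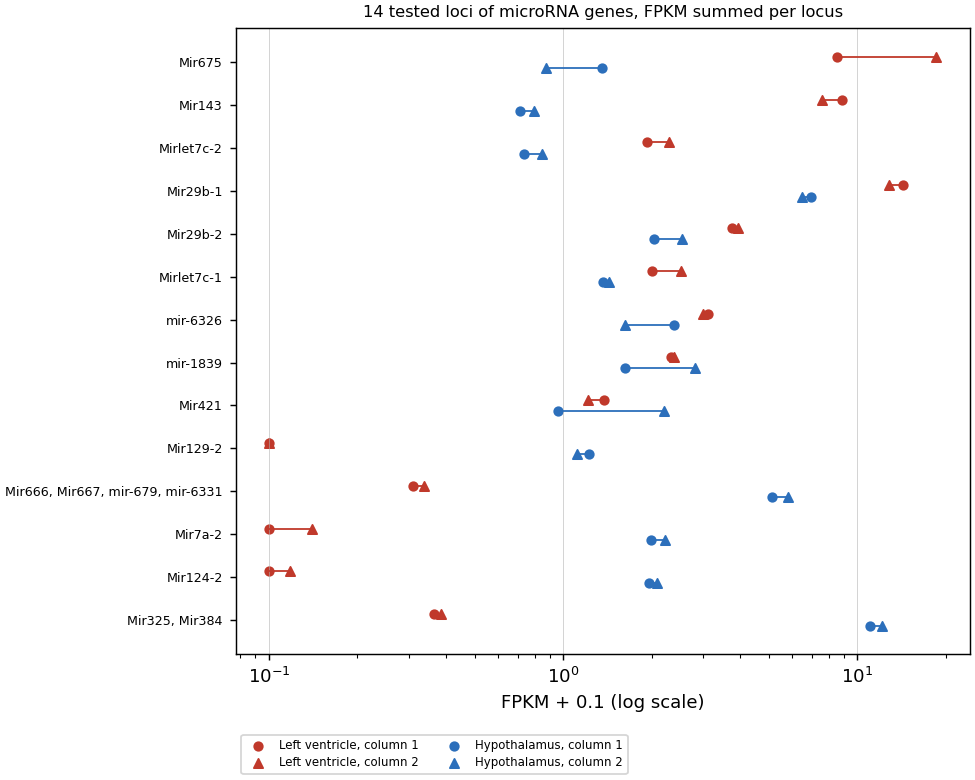
FPKM + 0.1 summed per locus (log scale) in each column for the 14 tested loci of microRNA genes, ordered by the log2 difference, with left ventricle in red above hypothalamus in blue, circles for column 1 and triangles for column 2. The upper 5 loci, Mir675 to Mir29b-2, were higher in left ventricle, the next 4 were not called, and the lower 5 were higher in hypothalamus.

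Loci of Mir421, mir-1839 and mir-6326 were the other 3 that were tested and not called, and the small difference of mir-1839 (0.15 over loci) was -0.25 on rescaled columns. The mir-6326 locus summed to 3.01 and 2.89 FPKM in left ventricle, against 2.29 and 1.53 in hypothalamus, but its isoforms stood apart. TCONS_00015822 had 0.600 and 2.45 FPKM in left ventricle, against 0.010 and 0.000123 in hypothalamus (adjusted p = 0.015, and 0.061 and 0.067 without hypothalamus column 1 or 2). TCONS_00015817 had 1.82 and 0 FPKM in left ventricle, against 1.26 and 0.811 in hypothalamus, and was not called (adjusted p = 0.39), but without left ventricle column 1 it was higher in hypothalamus (adjusted p = 0.025).

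One locus had isoforms called in opposite directions, out of 55 loci with at least 2 tested transcripts. It is the Mir29b-1 locus on chromosome 4 (58098301 to 58417174), whose 7 transcripts summed to 14.2 and 12.7 FPKM in left ventricle, against 6.84 and 6.37 in hypothalamus (log2 difference 1.01 ± 0.16, adjusted p = 0.00061 over loci). TCONS_00078285 had 6.62 and 6.55 FPKM in left ventricle, against 1.12 and 1.36 in hypothalamus (2.33 ± 0.24, adjusted p = 6.5e-05). TCONS_00078278 had 4.50 and 4.24 FPKM in left ventricle, against 2.26 and 1.999 in hypothalamus (1.005 ± 0.19, adjusted p = 0.0019). TCONS_00078284 went the other way, being listed at 0 in both left ventricle columns and at 1.70 and 1.83 FPKM in hypothalamus (adjusted p = 6.6e-05). Its mean FPKM was above 1 in each of the other 4 tissues, so left ventricle was the tissue in which it was listed at 0. TCONS_00078286, at 2.25 and 1.43 FPKM in left ventricle, against 1.46 and 0.844 in hypothalamus, was not called. None of these is assigned to Mir29b-1 itself. TCONS_00078268 and TCONS_00078273, which are, had at most 0.142 FPKM in any of the 4 columns and were not tested. FPKM of isoforms at 1 locus are estimates that divide shared reads, so they depend on one another. At 35 further loci with at least 2 called transcripts, all calls of a locus ran in 1 direction. A second locus with opposite calls appeared without left ventricle column 1 (the mir-6326 locus) and without hypothalamus column 1.

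Imprinted genes, which are made from 1 parental chromosome, gave 6 tested transcripts, 1 higher in left ventricle (Mir675) and 5 higher in hypothalamus. Called in those directions were 45.5% and 24.0% of all tested. All but TCONS_00090635 reached the tested limit in 1 tissue only, which left no other direction for a call. The 5 are neighbours that were listed by position, so these counts are no test of imprinted genes. The 5 lie in the Dlk1-Dio3 domain of chromosome 6, from which the maternal chromosome makes a row of long non-coding and small RNAs in mouse and human. In that interval (142782550 to 143062780) 20 transcripts at 5 loci summed to 1.74 and 2.65 FPKM in left ventricle, against 69.3 and 81.5 in hypothalamus. In 17 of the 20, both hypothalamus columns were above both left ventricle columns. Of all tested transcripts, the columns did not overlap for 87.7%, in either direction. That share is of another set, since only 5 of the 20 were tested, so it cannot be set directly against the 17. TCONS_00090635, overlapping ENSRNOG00000041744, had 1.02 and 1.08 FPKM in left ventricle, against 44.2 and 52.4 in hypothalamus (log2 difference -5.39 ± 0.78, adjusted p = 0.00041). TCONS_00090674 had 0.392 and 1.15 FPKM in left ventricle, against 14.8 and 17.7 in hypothalamus (-4.38 ± 0.66, adjusted p = 0.00051). The interval was also abundant in adrenal gland, where it summed to 84.2 and 74.0 FPKM. TCONS_00090673, TCONS_00090685 and TCONS_00090695, the last assigned to mir-679, had hypothalamus values between 1.10 and 3.496 FPKM and left ventricle values of at most 0.175. Mir666 and Mir667 lie at the same locus as mir-679, which summed to 0.209 and 0.236 FPKM in left ventricle, against 5.05 and 5.70 in hypothalamus.

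Among the listed markers of neurons and glia, 3 transcripts were tested and all were called higher in hypothalamus. All 3 reached the tested limit through hypothalamus alone, with left ventricle means of at most 0.105 FPKM. That left no other direction for a call, so their count cannot be set against the 24.0% of all tested. The 3 transcripts were those of Mir124-2 and Mir7a-2 and one overlapping Sox2, the gene of a transcription factor of neural stem cells. TCONS_00055701, the Sox2 one, had 0.118 and 0.0923 FPKM in left ventricle, against 4.04 and 4.41 in hypothalamus (log2 difference -4.40 ± 0.95, adjusted p = 0.0036), and the call was lost with a pseudocount of 0.01 (adjusted p = 0.061). The single cardiac muscle marker present, TCONS_00107388, shares a splice junction with Myl1, the gene of an alkali light chain of fast skeletal muscle myosin. It had 4.43 and 34.9 FPKM in left ventricle, against 1.60 and 1.16 in hypothalamus (3.11 ± 1.19, adjusted p = 0.046). Its ventricle columns stood far apart, and the highest mean of the 6 tissues was in cortex, at 34.3 FPKM, with 34.7 and 32.4 FPKM in adrenal gland. The call was lost when either hypothalamus column or left ventricle column 2 was left out (adjusted p between 0.11 and 0.27), on rescaled columns (0.068), after quantile normalization (0.061), in a fit on the 4 columns alone (0.083), with a pseudocount of 0.01 (0.18) and with no filter (0.099). Of 21 families of ion channels, pumps and receptors of excitable cells, 1 gene was present, Kcna1, a voltage-gated potassium channel of axons. Its transcript was listed at 0 in both left ventricle columns and had 0.148 and 0.216 FPKM in hypothalamus, and it was not tested.

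By annotation, both directions were dominated by transcripts with no reference gene, 162 of the 233 higher in left ventricle (69.5%) and 84 of the 123 higher in hypothalamus (68.3%), against 65.6% of all tested. Of 34 transcripts antisense to an exon, 22 (64.7%) were higher in left ventricle and 7 (20.6%) in hypothalamus, against 45.5% and 24.0% of all tested, and whether this class differs from the others was not tested. TCONS_00099772, antisense to Eif4b, the gene of a translation initiation factor, had 23.9 and 23.0 FPKM in left ventricle, against 2.77 and 2.46 in hypothalamus (log2 difference 3.12, adjusted p = 8.6e-06). TCONS_00100656, antisense to Robo3, the gene of an axon guidance receptor, had 6.56 and 4.94 FPKM in left ventricle, against 0.391 and 0.288 in hypothalamus (3.73, adjusted p = 2.5e-05). TCONS_00046645, antisense to Scgn, the gene of the calcium-binding protein secretagogin, had 3.88 and 2.83 FPKM in left ventricle and was listed at 0 in both hypothalamus columns (adjusted p = 4.8e-05). Partner genes best known from neurons thus stood on both sides, since TCONS_00074421, antisense to Plxna4a, a semaphorin receptor gene, was listed at 0 in both left ventricle columns and had 1.60 and 1.44 FPKM in hypothalamus (adjusted p = 3.5e-05). Of 70 transcripts with another exon overlap, 19 (27.1%) were higher in left ventricle and 25 (35.7%) in hypothalamus. These antisense examples, and the genes of the next paragraph, were chosen after their values were seen.

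Of 114 tested transcripts assigned to a gene with a symbol, 52 were higher in left ventricle, 20 were higher in hypothalamus and 42 were not called, against 45.5% and 24.0% of all tested higher in those tissues. Towards left ventricle, TCONS_00103538, which shares a splice junction with Fli1, the gene of a transcription factor of blood and endothelial cells, had 5.17 and 4.10 FPKM in left ventricle, against 0.209 and 0.297 in hypothalamus (log2 difference 3.75, adjusted p = 8.7e-05). TCONS_00052695 of IL15, a cytokine gene, had 2.80 and 2.57 FPKM in left ventricle, against 0.273 and 0.154 in hypothalamus (3.17, adjusted p = 5.5e-05). TCONS_00012910 of Prune2 had 1.53 and 0.859 FPKM in left ventricle and was listed at 0 in both hypothalamus columns. Towards hypothalamus, TCONS_00056854 of Celf3, the gene of an RNA-binding splicing factor, had 0.349 and 0.202 FPKM in left ventricle, against 1.52 and 1.68 in hypothalamus (-2.20, adjusted p = 0.012). TCONS_00068679 of Ndrg3 had 3.27 and 2.22 FPKM in left ventricle, against 10.3 and 9.67 in hypothalamus (-1.85, adjusted p = 0.0046). TCONS_00013374, overlapping Ppp1r3c, the gene of a glycogen-targeting subunit of protein phosphatase 1, had 22.4 and 18.8 FPKM in left ventricle, against 3.58 and 4.35 in hypothalamus. Its columns did not overlap between the tissues, yet it was not called (2.35, adjusted p = 0.27) in a fit whose spread is pooled over all 6 tissues.

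Some called transcripts lay near others called in the same direction. With loci of one direction joined when they lay within 1000 kb of each other, 4 runs of at least 3 loci were higher in left ventricle and took in 13 transcripts, while 130 of the 233 stood alone. Another 4 runs were higher in hypothalamus and took in 28 transcripts, while 60 of the 123 stood alone. On chromosome 1 (121986825 to 123997923) all 9 tested transcripts, at 9 loci, were higher in hypothalamus. Their left ventricle values were at most 0.209 FPKM and their hypothalamus values lay between 0.701 and 7.03 FPKM. That stretch holds the mir-344i locus, which was listed at 0 in both left ventricle columns and had 0.265 and 1.35 FPKM in hypothalamus. On chromosome 9 (11060508 to 11560435) 8 of 11 tested transcripts were higher in hypothalamus and 0 in left ventricle, and every one of the 11 was highest in adrenal gland. On chromosome 1 (201907284 to 202932227) 6 of 8 were higher in hypothalamus. Of all tested transcripts, 24.0% were called in that direction.

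Towards left ventricle, 6 of 6 tested transcripts on chromosome 1 (37139201 to 37393942) were higher, with ventricle values between 0.784 and 2.41 FPKM and hypothalamus values of at most 0.140. One of them, TCONS_00007586, is antisense to ENSRNOG00000017095 and had 1.85 and 1.87 FPKM in left ventricle while listed at 0 in both hypothalamus columns (adjusted p = 6.1e-08). On chromosome 16 (806604 to 1240053) 4 of 4 were higher, among them TCONS_00039469, antisense to Spin1, at 5.59 and 2.22 FPKM in left ventricle, against 0.1001 and 0 in hypothalamus. The 4 tested transcripts beside and including TCONS_00054657 on chromosome 2 (81839891 to 82054513) were also all higher in left ventricle. Of all tested transcripts, 45.5% were called in that direction. These stretches were picked for their calls, so their counts describe where the calls lie and are no test of clustering.

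The transcripts of both directions were also looked up in the other 4 tissues. Of the 233 transcripts higher in left ventricle, 104 (44.6%) reached a mean FPKM of 1 in none of liver, cortex, outer medulla and adrenal gland, and 52 (22.3%) reached it in all 4. Of the 123 higher in hypothalamus, 80 (65.0%) reached it in none and 5 (4.07%) in all 4. Left ventricle had the highest mean of the 6 tissues for 151 of its 233, and hypothalamus for 96 of its 123. Transcripts higher in left ventricle were detected about as often in liver (39.5%), cortex (38.6%), outer medulla (40.3%) and adrenal gland (33.0%). Those higher in hypothalamus were detected in adrenal gland in 28.5% of cases, against 6.504% in liver, 8.94% in cortex and 11.4% in outer medulla.

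**Figure D5:**
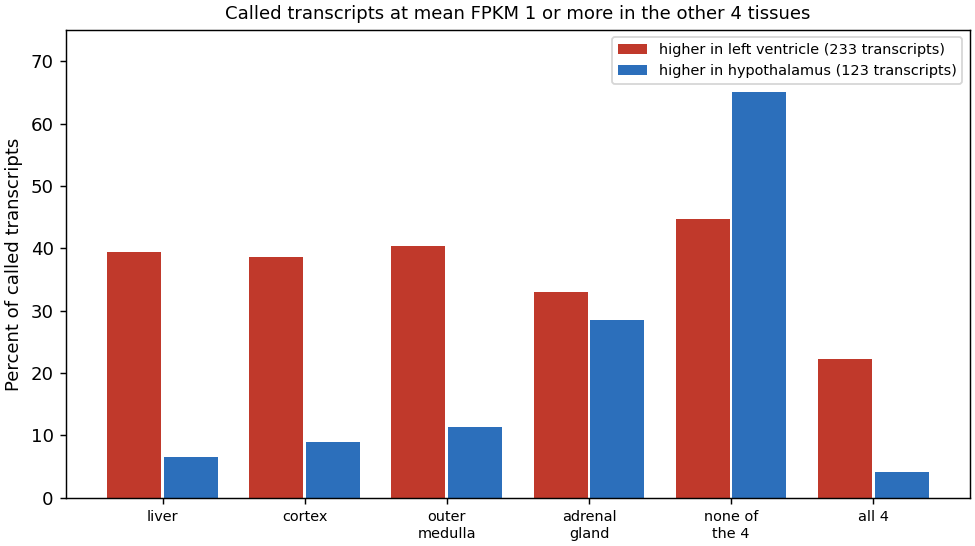
Percent of the 233 transcripts higher in left ventricle (red) and of the 123 higher in hypothalamus (blue) that reached a mean FPKM of 1 in liver, cortex, outer medulla, adrenal gland, none of these 4 tissues and all 4. For transcripts higher in left ventricle the tissues range from 33.0% to 40.3%, and for those higher in hypothalamus adrenal gland stands at 28.5% and the other 3 tissues at 6.504% to 11.4%.

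Transcripts typical of adrenal gland had a measurable level in the hypothalamus columns. For 129 transcripts that reached FPKM 1 in adrenal gland and stood at least 5-fold higher there than in left ventricle, liver, cortex and outer medulla, the median level was 0.497% and 3.44% of the adrenal level in the left ventricle columns and 12.1% and 5.50% in the hypothalamus columns. Left ventricle was low by the choice of these transcripts. Of the 129, 37 were tested here, but that choice bears on the direction of their calls, so these are not counted. TCONS_00098844, overlapping Cyp11b3, the gene of an adrenal steroid hydroxylase and the single adrenal marker of 18 symbols present, had 0.801 and 2.18 FPKM in left ventricle, against 5.89 and 1.21 in hypothalamus and 60.5 and 44.4 in adrenal gland. Its difference was not called (adjusted p = 0.53). Without hypothalamus column 1, 107 of the 123 transcripts higher in hypothalamus were still called, and 1 of the 123 had column 1 at least 2-fold above column 2. These counts cannot tell how much adrenal RNA the calls hold. A transcript whose columns differ is less readily called, and column 2 also had a median of 5.50% of the adrenal level. The part of adrenal RNA in the hypothalamus values was not tested.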

How the data were processed

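Per the labels' protocols, TRIzol was used for extraction of total RNA and a TruSeq Stranded RNA LT kit for the libraries. The submitters' processing notes name the genome build rn5 and bcl2fastq 2.15.0. The authors deposited FPKM per transcript in 2 columns for each of 6 tissues, and transcript length in bases (another kind of value), per the file headers. The sources used here do not name the aligner, the program behind the FPKM estimates, the strand setting, the lncRNA criteria or the base (0 or 1) of the start coordinates. All 12 columns were matched to tissues, leaving 0 unused, and 3 transcripts without values were left out.

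limma 3.58.1 (R 4.3.3) with a mean-variance trend was fitted to log2(FPKM + 0.1) with the 6 tissues as a factor and all 12 columns. Tested transcripts reached a mean FPKM of 1 in left ventricle or hypothalamus, and calls an adjusted p under 0.05 (Benjamini-Hochberg). Fold changes of low transcripts are understated on that scale. No fold is given against a tissue listed at 0. Loci were tested on summed FPKM. Counts were not used here, so no count test was run. Tables and figures used Python 3.11.15, pandas 2.3.3, NumPy 2.4.6 and matplotlib 3.10.9. On simulated data for left ventricle against hypothalamus (512 transcripts), changes of 2-fold were recovered at 26.9%, of 4-fold at 62.7% and of 8-fold at 72.7%, with 3 false among 111 calls, so many moderate changes are missed.

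Transcripts were named by rule: the 10 largest called differences in each direction, the 5 most abundant in each tissue, the shared ones within 2-fold, tested members of the gene lists and of microRNA genes, and loci with opposite isoforms. Others are marked as chosen after their values were seen. The rule, the lists and the comparison were chosen with earlier results of these data known. Alternatives were other pseudocounts (0.01 and 1), FPKM minimums, scalings, fits on fewer columns, a column-number block, sums per locus, a 5-fold rule of size and each column left out.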

Additional observations from a re-analysis of the deposited data

How the results depend on the processing

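The number of called transcripts, 356, was 550 with a minimum mean of 0.5 FPKM in either tissue (235 higher in hypothalamus), 634 with no filter (306 higher in hypothalamus) and 198 with a mean over both tissues of 1 or more (139 higher in left ventricle and 59 in hypothalamus). These alternatives tested 884, 2392 and 299 transcripts. A 5-fold rule of size gave 144 higher in left ventricle. Between 301 and 346 were called with 1 column left out (194 to 231 higher in left ventricle, 107 to 126 in hypothalamus), 324 to 386 under other pseudocounts, scalings and fits without liver or on the 4 columns alone, 331 without hypothalamus column 1 and adrenal gland column 2, and 287 without transcripts at least 5-fold higher in adrenal gland than in hypothalamus. Of loci, 352 were called, and 305 to 336 with 1 column left out. The fits without liver and without both of those columns, and the alternatives for loci and for opposite isoforms, were chosen after seeing the data. Under each alternative, transcripts called both there and in the reported fit kept their direction, except TCONS_00080781, at a log2 difference of 0.66 as reported and -0.80 after quantile normalization (adjusted p = 0.032). TCONS_00021906 changed sign there as well, at -0.24. The causes of these changes were not tested beyond the number of transcripts each filter admits.

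The count of shared transcripts, 72, was 157 at an FPKM of 0.5 in every column. The count within 2-fold, 6, was 18 with a pseudocount of 1, which shrinks differences by its construction, 11 in a fit on the 4 columns alone, and 3 to 4 with 1 column left out. Loci with opposite isoforms numbered 2 at a minimum of 0.5, 3 with no filter, 0 with the mean over both tissues, 2 after quantile normalization, and 1 to 2 with 1 column left out. Detected transcripts numbered 612 in left ventricle and 494 in hypothalamus at a mean FPKM of 0.5, and 1836 and 1910 above 0. On rescaled columns they numbered 328 and 282 at a mean FPKM of 1. The differences between columns 1 and 2 correlated between the tissues at r = -0.0838 across 414 transcripts. A low r cannot show whether columns of the same number share an animal, as an animal's effect may differ between tissues. A fit with the column number as replicate block called 357 (236 higher in left ventricle and 121 in hypothalamus). Of 45 named called transcripts, 37 were called under every alternative that tested them, and 7 lost their call when 1 column was left out. Depth limits low values most in left ventricle, the shallower of the 2 tissues.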

Other observations

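Some values limit single transcripts. Of the transcripts detected in each tissue, 28 of 368 in left ventricle and 12 of 243 in hypothalamus had columns at least 4-fold apart. In the table, 17 transcripts had the same values as another in all 12 columns, so they are not separate measurements. TCONS_00003260 and TCONS_00003261 of mir-1839 are such a pair, each at 1.12 and 1.14 FPKM in left ventricle and 0.760 and 1.36 in hypothalamus. Just inside the threshold lay TCONS_00041711, at 0 and 3.16 FPKM in left ventricle and 16.3 and 17.0 in hypothalamus (adjusted p = 0.049). Just outside it lay TCONS_00106162, at 0.122 and 0.612 FPKM in left ventricle and 2.45 and 1.65 in hypothalamus (adjusted p = 0.050).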
